A study of Homo sapiens with 6 samples.

Results

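Human gene families that expanded by segmental duplication keep several near-identical copies in the genome, and a single guide RNA (sgRNA) designed for one copy may match others. In a pooled CRISPR/Cas9 knockout screen, sgRNAs were examined against 14 such symbol prefixes, namely USP17L, PRAMEF, TBC1D3, NBPF, GOLGA6, GOLGA8, POTE, TRIM49, TRIM64, DEFB, NPIP, ANKRD20A, AMY1 and AMY2. The sgRNAs were taken by the start of the target symbol in the count table, with no use of any measured value. The rule found 454 of 107237 listed sgRNAs, against 115 symbols. The sgRNAs against olfactory receptor genes, 2035 sgRNAs for 372 symbols, served as comparison.

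The screen asked which knockouts alter survival of triple-negative breast cancer cells under the EGFR inhibitor erlotinib. MDA-MB-231, an established human line of this tumour type, carried a stably integrated Cas9 and the GeCKO v2 sgRNA library, introduced by lentivirus at an MOI of 0.3. All cells had 7 days of puromycin at 1 µg/mL, followed by 7 days of DMSO, the vehicle, or of 10 µM erlotinib. Each group had 3 libraries of sgRNA sequences amplified from genomic DNA, and the labels do not say whether these came from separate cultures, so p-values measure only the spread between libraries, which may be technical. Values of 3 libraries are given in the order of replicates 1, 2 and 3. The DMSO libraries held 4263494, 2205882 and 1574743 counts, and the erlotinib libraries 2026862, 1773235 and 3332895. Condition and reverse sequencing primer changed together and cannot be told apart.

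Cas9 cuts wherever the sgRNA finds a matching sequence next to its short recognition motif, so an sgRNA that matches several copies can break the genome at several places. Cells that carry many cuts are known to grow more slowly in knockout screens, which is why such sgRNAs are usually inspected apart from others. Members of these families have varied roles. The USP17L genes encode deubiquitinating enzymes, PRAMEF genes leucine-rich repeat relatives of the tumour antigen PRAME, NBPF genes proteins with Olduvai repeats, GOLGA6 and GOLGA8 golgin-like proteins, POTE and ANKRD20A genes ankyrin-repeat proteins, TRIM49 and TRIM64 tripartite-motif proteins, DEFB genes beta-defensins, which are secreted antimicrobial peptides, and AMY1 and AMY2 the salivary and pancreatic amylases. Olfactory receptors detect odours in the nose and also form a large family.

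The label of multi-copy families held only in part. TBC1D30, with 6 sgRNAs, and TBC1D31, with 4, share letters with TBC1D3 but are single genes outside its family. DEFB contributed 177 sgRNAs, of which 39 targeted the 12 symbols listed as A and B copies of one defensin, and 138 targeted other defensin symbols. No genome was used, so the number of sites that each sgRNA matches was not measured.

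Similarity between listed sgRNAs could be read from their sequences. All listed sequences were 20 bases long and differed from one another, but 85 of the 454 sgRNAs (18.7%) had a partner in the library at 2 or fewer differing bases, against 108 olfactory sgRNAs (5.31%). These formed 40 groups, 30 of them pairs, together with 12 sgRNAs against other symbols. Each sequence is listed once, so an sgRNA that matches several copies exactly need not have a partner. Of the 39 sgRNAs against DEFB symbols listed as A and B copies, 2 had one. A group of 5 joined sgRNAs against different PRAMEF genes, and is shown because single-base neighbours in it gave unlike counts. Sequences are written 5′ to 3′ as listed, with capitals at the positions at which members of a group differ.
PRAMEF15: ctcacctgggACgaaCcCCT
PRAMEF5: ctcacctgggATgaaCcCCT
PRAMEF7: ctcacctgggGCgaaCcTCT
PRAMEF18: ctcacctgggGCgaaCcTTT
PRAMEF17: ctcacctgggGCgaaGcTTC

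Another group of 4 also lay within PRAMEF, and its last sgRNA was one of the few of the family seen in erlotinib.
PRAMEF6: CcctCcctcacctgagcaGc
PRAMEF5: CcctGcctcacctgagcaGc
PRAMEF20: CcctTcctcacctgagcaTc
PRAMEF15: TcctCcctcacctgagcaGc

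The third group shown crossed family names. It held sgRNAs against POTEE and ANKRD20A2, and against LOC100287399, which RefSeq now names POTEB2, and ANKRD18A, neither of which has one of the 14 prefixes.
ANKRD20A2: tcAtagAactgCtctacaCT
POTEE: tcAtagGactgCtctacaTC
LOC100287399: tcAtagGactgCtctacaTT
ANKRD18A: tcCtagGactgTtctacaTT

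Among the remaining sgRNAs, those below carried the highest counts, or the smallest p-values of either direction, described later. Capitals in the TRIM49 sgRNA mark the bases at which an sgRNA against TRIM48 in the same library differs from it, and the others had no such mark.
TRIM49: taCagaaaatgcagtctttG
TBC1D3: tatccacccacttgctcttt
GOLGA6L10: tcccacagttaaaagcatat
DEFB133: tctcatgataaagcaactat
DEFB110: tgcaagcagcaatgagttcc
DEFB113: agagaatgtcagcttgttcg
NBPF3: gccaaccggcaaaataatta
PRAMEF20: agcaacaccgatctacctcc
PRAMEF22: atttatgaggatgagcctac

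In DMSO, the multi-copy sgRNAs were seen more often than olfactory receptor sgRNAs in each library. An sgRNA was called detected with at least 1 count. Of the 454 sgRNAs, 215, 172 and 180 were detected in DMSO, which is 47.4%, 37.9% and 39.6% (mean 41.6% ± 5.04, SD, n = 3). The olfactory shares were 40.9%, 35.3% and 38.0% (38.1% ± 2.83, SD, n = 3). The difference was 3.56 percentage points (SD 2.52, range 1.66 to 6.42), above 0 in 3 of 3 libraries, and an exact two-sided sign-flip permutation test over libraries gave p = 0.25, the smallest that 3 libraries allow, and 0.25 after Benjamini-Hochberg adjustment over 7 comparisons of DMSO shares and levels. The groups of library values overlapped, since the multi-copy share of DMSO replicate 2 lay below the olfactory share of replicate 1. DMSO replicate 1, the deepest library, had the highest share of both kinds. Against all other protein-coding sgRNAs the difference was 6.01 percentage points, with 3 of 3 libraries above 0. Non-targeting control sgRNAs were detected at 56.9% ± 4.40 (SD, n = 3) in DMSO, above the multi-copy share in each library.

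In erlotinib, few sgRNAs of either kind were counted. Of the multi-copy sgRNAs, 17, 13 and 14 were detected in the 3 libraries, which is 3.74%, 2.86% and 3.08% (mean 3.23% ± 0.459, SD, n = 3). The olfactory shares were 2.31%, 1.82% and 2.21% (2.11% ± 0.260, SD, n = 3). The multi-copy share was again the higher in 3 of 3 libraries, by 1.12 percentage points (SD 0.288, range 0.872 to 1.43, exact two-sided sign-flip permutation p = 0.25, adjusted 0.438 over 7 comparisons). Over all 6 libraries the difference was above 0 in 6 of 6, with an exact sign-flip permutation p = 0.03125, the smallest that 6 libraries allow, and 0.0521 after Benjamini-Hochberg adjustment over the 5 quantities compared. The same sgRNAs are compared in each library, so the 6 differences share any unevenness of the starting pool. Non-targeting sgRNAs were detected at 3.93% ± 0.504 (SD, n = 3) in erlotinib, again above the multi-copy share in each library.

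Detection was 12.9-fold lower in erlotinib than in DMSO for multi-copy sgRNAs and 18.0-fold lower for olfactory sgRNAs, as ratios of the mean shares. The log2 ratio of the multi-copy share over the olfactory share was 0.21, 0.10 and 0.06 in DMSO and 0.70, 0.66 and 0.48 in erlotinib. The groups did not overlap, the difference in mean log2 ratio was 0.49, and an exact two-sided permutation test of 3 against 3 libraries gave p = 0.1, its smallest value. It rests on 13 to 17 detected multi-copy sgRNAs in each erlotinib library. Without the DEFB sgRNAs this difference was 0.33 (exact permutation p = 0.2), and with the 14 prefixes weighing the same it was 0.22 (exact permutation p = 0.3).

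Counts per sgRNA followed the detection in DMSO. Averaged over the detected sgRNAs, the multi-copy level was 32.8 ± 2.06 CPM, counts scaled to the library total (SD, n = 3), and the olfactory level was 26.3 ± 1.65. The difference of 6.43 CPM had a range of 5.61 to 7.68 over the 3 libraries (exact sign-flip permutation p = 0.25). In erlotinib the order of these means was the opposite, with 357, 842 and 223 CPM per detected multi-copy sgRNA and 366, 960 and 301 CPM per detected olfactory sgRNA. The leading sgRNA held 24.3%, 57.6% and 53.6% of all multi-copy counts in the erlotinib libraries, and 3.00%, 2.65% and 2.32% in those of DMSO. The order in erlotinib depended on the measure. The median over detected sgRNAs was 202, 147 and 81.6 CPM for multi-copy and 87.3, 177 and 72.0 CPM for olfactory sgRNAs, higher for multi-copy sgRNAs in 2 of 3 libraries, and the mean over listed sgRNAs was higher for multi-copy sgRNAs in 3 of 3, by 3.94 CPM on average (exact sign-flip permutation p = 0.25).

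Recurrence over libraries showed the same order. Of the 454 multi-copy sgRNAs, 60 (13.2%) were counted in all 3 DMSO libraries, against 8.70% of olfactory and 7.45% of other protein-coding sgRNAs. Counted in at least 1 DMSO library were 338 multi-copy sgRNAs (74.4%) and 72.0% of olfactory sgRNAs. In any erlotinib library there were 35 (7.71%), against 119 olfactory sgRNAs (5.85%) and 5.32% of other protein-coding sgRNAs. In 2 or more erlotinib libraries were 8 of the 454 multi-copy and 10 of the 2035 olfactory sgRNAs. Those in exactly 2 were 7 multi-copy sgRNAs (1.54%), 10 olfactory sgRNAs (0.491%) and 0.464% of other protein-coding sgRNAs. Among the 7, the sgRNAs of DEFB133, NBPF3 and DEFB107A had only 3, 1 and 1 counts in erlotinib replicate 1, their second library. The olfactory sgRNAs were not examined for such low counts in a second library. No count in any library was found for 111 members.

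The families differed widely in DMSO. Highest among those with more than 20 sgRNAs was USP17L, with 52.2% ± 2.88 (SD, n = 3) of its 53 sgRNAs detected. Its share lay above that of olfactory sgRNAs by 14.1 percentage points (range 11.1 to 17.5), and 15 of its sgRNAs were counted in all 3 DMSO libraries. Its level per listed sgRNA was 23.0 CPM in DMSO, where olfactory sgRNAs had 9.99 CPM. Without USP17L, the difference between all other members and olfactory sgRNAs in DMSO was 2.17 percentage points. USP17L11, with 6 sgRNAs, held 1998, 840 and 668 counts in DMSO, the highest summed level of any member symbol at 425 CPM ± 43.9 (SD, n = 3).

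PRAMEF genes, expressed mainly in the germline, had 79 sgRNAs with a detected share of 42.2% ± 10.2, and the shares lay on both sides of the olfactory ones. GOLGA6 had 44.4% ± 7.41 of 27 sgRNAs. DEFB had 41.6% ± 3.76 of 177 sgRNAs, above the olfactory share in 3 of 3 libraries, by 2.69 to 4.83 percentage points. Within DEFB, the 39 sgRNAs against symbols listed as A and B copies had 53.0% ± 8.24 and the 138 others 38.4% ± 3.83 (each SD, n = 3). The difference of 14.6 percentage points ranged from 6.63 to 23.5 over libraries, and an exact sign-flip permutation test gave p = 0.25, the smallest possible. The mean share of the 138 others, which include the 6 sgRNAs of DEFB131, stood 0.34 percentage points above the olfactory mean. The library also holds sgRNAs against LOC100129216, which RefSeq now names DEFB131B, so these 138 are not all without a second copy.

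POTE, GOLGA8 and NBPF had lower shares than olfactory sgRNAs in each DMSO library. POTE, ankyrin-repeat genes expressed in testis and some tumours, had 7, 4 and 5 of 23 sgRNAs detected in DMSO (23.2% ± 6.64, SD, n = 3), and none in all 3. Its shares lay below the olfactory ones by 10.5 to 17.9 percentage points. NBPF had 30.9% ± 7.71 of 27 sgRNAs and GOLGA8 26.7% ± 5.77 of 10 sgRNAs. In erlotinib, 0 of the 23 POTE sgRNAs were counted, which allows each up to 3 counts per library, or 0.900 to 1.69 CPM.

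The small families varied with few sgRNAs behind each share. TBC1D3 itself, a hominoid gene with a Rab GTPase-activating protein domain, had 5 of 6 sgRNAs detected in each DMSO library (83.3%), 4 of them in all 3. TBC1D30 and TBC1D31 had 33.3% ± 23.1 of their 10 sgRNAs. NPIP, named for a nuclear pore interacting protein, had 2, 3 and 3 of 3 sgRNAs. The shares of the other small families were 45.8% for the 8 TRIM49 sgRNAs, 33.3% for the 14 of TRIM64, 44.4% for the 3 of ANKRD20A, 47.6% for the 7 of AMY1 and 28.6% for the 7 of AMY2, and none of these 5 lay on the same side of the olfactory share in all DMSO libraries.

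Fewer sgRNAs were listed per symbol than for olfactory receptors. The mean was 3.95 per symbol against 5.47, and 18 of the 115 symbols had a single sgRNA. Counts were found for 110 symbols in DMSO and 29 in erlotinib. The 5 symbols with no count at all were ANKRD20A2, DEFB103B, POTEF, POTEJ and POTEM, each with 1 or 2 listed sgRNAs, and of the 88 symbols with 3 or more sgRNAs, 0 were without a count. Of 48 symbols with 5 or more sgRNAs, 11 had every one detected in DMSO. These were AMY1A, DEFB104A, DEFB108B, DEFB121, DEFB127, DEFB132, GOLGA6A, PRAMEF5, TBC1D3, USP17L11 and USP17L2. Of all member sgRNAs, 74.4% were counted in at least 1 DMSO library. The share of olfactory or other symbols with every sgRNA detected was not taken.

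Near-identical sgRNAs were counted as separate sequences, with unlike counts in the groups shown. Other groups held similar counts, such as the TRIM64B sgRNA with 80, 145 and 36 counts in DMSO and a TRIM43B sgRNA 2 bases from it with 101, 115 and 43, a pair chosen after its values were seen. In the group of 5 PRAMEF sgRNAs shown above, that of PRAMEF15 had 255, 25 and 100 counts in DMSO, and that of PRAMEF5, which differs at a single position, had 303, 204 and 0. The PRAMEF7 sgRNA had 0, 111 and 0 counts, that of PRAMEF18 had 32, 0 and 132, and that of PRAMEF17 had 0, 43 and 0. Only the PRAMEF15 sgRNA of this group was in all 3 DMSO libraries, and no sgRNA of the group was in erlotinib.

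In the second PRAMEF group, the PRAMEF6 sgRNA had 0, 0 and 1 counts in DMSO, that of PRAMEF5 had 91, 0 and 0, that of PRAMEF20 had 197, 0 and 128, and that of PRAMEF15 had 53, 0 and 18. The PRAMEF15 sgRNA alone had counts in erlotinib, 918 in replicate 3 and 0 in the others. DMSO replicate 2 held no count of the 4 sequences. In the group that crossed family names, the ANKRD20A2 sgRNA had 0 counts in all 6 libraries and the POTEE sgRNA 120, 0 and 26 in DMSO. Against these, the LOC100287399 sgRNA had 1086, 288 and 272 counts in DMSO and 0 in each erlotinib library.

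Member sgRNAs with a near-identical partner were detected at 46.7% ± 9.58 in DMSO and those without at 40.5% ± 4.00 (SD, n = 3). The difference of 6.20 percentage points had a range of 2.60 to 12.7 and was above 0 in 3 of 3 libraries (exact sign-flip permutation p = 0.25, the smallest possible). Without USP17L the difference was 1.45 percentage points (exact permutation p = 1), and with partners at 3 or fewer differing bases it was 2.25 percentage points (exact permutation p = 0.5). Olfactory sgRNAs with a partner had 37.0% ± 8.49, below those without. Member sgRNAs without a partner, at 40.5%, lay above olfactory sgRNAs without one, at 38.1% ± 2.88. Members without a partner may include sgRNAs that match several copies exactly, which was not measured. Among 44 pairs at a single differing base, both sgRNAs were detected in 15, 10 and 9 pairs in DMSO, and in 5, 4 and 7 of 41 such olfactory pairs. G and C made up 9.41 of the 20 bases on average in multi-copy sgRNAs and 9.53 in olfactory sgRNAs.

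Across erlotinib, the 35 multi-copy sgRNAs with a count made 44 detections, of which 8 were at 1 to 3 counts, and 27 sgRNAs were in a single erlotinib library. Their DMSO levels were the higher ones. Of these 35, 30 (85.7%) were also counted in DMSO, against 73.5% of the 419 others, and for olfactory sgRNAs the shares were 78.2% and 71.6%. Their mean DMSO level was 28.6 CPM, against 12.3 CPM for members not counted in erlotinib (olfactory sgRNAs, 12.5 and 9.84 CPM).

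The sgRNA against TRIM49, a tripartite-motif protein, was the only multi-copy sgRNA counted in all 6 libraries. It had 359, 151 and 130 counts in DMSO and 2231, 2241 and 1 in erlotinib. Erlotinib replicates 1 and 2 lay above the DMSO libraries and replicate 3 was near 0, so the groups overlapped and edgeR's quasi-likelihood test gave an unadjusted p of 0.648 and an adjusted p of 0.662. The TRIM48 sgRNA that differs from it at 2 bases had 330, 0 and 14 counts in DMSO and 0 in erlotinib.

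Of the 7 other sgRNAs in 2 erlotinib libraries, those of DEFB133 and NBPF3 had 0 counts in all DMSO libraries. The DEFB133 sgRNA had 3, 11181 and 0 counts in erlotinib, and the NBPF3 sgRNA 1, 1406 and 0. Each was thus carried by erlotinib replicate 2. The DEFB110 sgRNA had 114, 0 and 25 counts in DMSO and 0, 43 and 5583 in erlotinib, where replicate 3 held nearly all. An sgRNA of DEFB131 had 0, 80 and 0 counts in DMSO and 718, 0 and 1059 in erlotinib, the only one of the 7 at over 500 counts in each of 2 erlotinib libraries.

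The remaining 3 were well counted in DMSO. The USP17L24 sgRNA had 836, 312 and 81 counts in DMSO and 1052, 0 and 188 in erlotinib. An sgRNA of DEFB105A had 440, 18 and 113 in DMSO and 0, 97 and 689 in erlotinib. That of DEFB107A had 280, 51 and 10 in DMSO and 1, 124 and 0 in erlotinib. In all 3 the groups overlapped, with adjusted p of 0.855, 0.770 and 0.543 in edgeR's quasi-likelihood test.

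High counts in a single erlotinib library belonged to further USP17L and PRAMEF sgRNAs. The USP17L13 sgRNA had 412, 170 and 159 counts in DMSO and 2993, 0 and 0 in erlotinib. That of USP17L15 had 0, 26 and 0 in DMSO and 0, 2111 and 0 in erlotinib. The PRAMEF20 sgRNA had 106, 65 and 0 in DMSO and 1648, 0 and 0 in erlotinib. In each of these 3, all erlotinib counts came from 1 library, a different one for USP17L15 than for the others.

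Of the 5 most abundant multi-copy sgRNAs among those in all 3 DMSO libraries, 2 had no count in erlotinib and 3 had counts in replicate 1. The leading USP17L11 sgRNA had 745, 249 and 163 counts in DMSO and 409, 0 and 0 in erlotinib, and another USP17L11 sgRNA had 160, 187 and 197 in DMSO and 0 in erlotinib. The TBC1D3 sgRNA had 175, 343 and 105 in DMSO and 0 in erlotinib. The USP17L24 and USP17L13 sgRNAs described before completed the 5.

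When each sgRNA was tested over all 74555 sgRNAs with a count, no multi-copy sgRNA passed in either direction. Of the 343 multi-copy sgRNAs with a count, 0 passed downward and 0 upward in edgeR's quasi-likelihood test with an adjusted p under 0.05, where the share over all sgRNAs was also 0%. At an unadjusted p under 0.05 in this test, 139 (40.5%) were downward, beside 32.3% of olfactory and 31.2% of all tested sgRNAs. Upward were 3 (0.875%), beside 0.671% of olfactory and 0.699% of all tested sgRNAs. The likelihood ratio test named in the study's methods, at an unadjusted p under 0.05, called 153 multi-copy sgRNAs (44.6%) depleted, beside 36.6% of all tested sgRNAs, and 5 (1.46%) enriched, beside 0.84%. Of the 1491 olfactory sgRNAs tested it called 574 (38.5%) depleted and 12 (0.805%) enriched. DESeq2's Wald test called 85 of the 343 multi-copy sgRNAs (24.8%) depleted at an adjusted p under 0.05, beside 18.8% of all. Without DMSO replicate 2, edgeR's quasi-likelihood test called 84 of 305 (27.5%), beside 19.3% of all, and without DMSO replicate 3 it called 95 of 293 (32.4%), beside 22.9% of all.

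The smallest p-values downward belonged to sgRNAs counted in 2 or 3 DMSO libraries and at 0 in erlotinib. The GOLGA6L10 sgRNA had 197, 152 and 34 counts in DMSO, and that of PRAMEF15 shown first above had 255, 25 and 100. The others were sgRNAs of USP17L7, USP17L11 and TBC1D31, and all 5 had an adjusted p of 0.0998 in edgeR's quasi-likelihood test. Upward, the smallest p-values were those of sgRNAs with 0 counts in DMSO. The PRAMEF22 sgRNA had 865 counts in erlotinib replicate 1, an NBPF24 sgRNA 886 in replicate 3 and the DEFB113 sgRNA 215 in replicate 1, each with 0 in the other erlotinib libraries. With those of NBPF3 and DEFB133, their adjusted p lay between 0.101 and 0.207 in edgeR's quasi-likelihood test.

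Calls were made once the counts of all sgRNAs of a symbol were summed. Of the 110 multi-copy symbols tested, 67 (60.9%) were lower in erlotinib at an adjusted p under 0.05 in edgeR's quasi-likelihood test, and 0 were higher. Over all 20409 symbols tested, 69.2% were lower and 0% higher, and of 370 olfactory symbols 263 (71.1%) were lower. At an unadjusted p under 0.05, 72 multi-copy symbols (65.5%) were lower and 0 higher, beside 73% lower of all symbols, and DESeq2's Wald test called 79 (71.8%) lower, beside 77.3% of all. With replicate number as a block, edgeR's quasi-likelihood test at an adjusted p under 0.05 called 0 symbols, among members as over all symbols. Group means below the floor of 3 counts per library were set to that floor. The median log2 ratio of erlotinib over DMSO in CPM was then -4.28 for multi-copy symbols, -4.90 for olfactory symbols and -4.64 for all symbols. Most symbols of each class were at 0 in erlotinib, so these medians follow the summed DMSO level and do not compare the size of the fall. Multi-copy symbols had fewer sgRNAs to sum, 3.95 on average against 5.47 for olfactory symbols. Neither the medians nor the shares called were adjusted for this.

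At 0 in every erlotinib library were 81 of the 110 multi-copy symbols (73.6%), beside 73.2% of olfactory symbols and 75.6% of all symbols. Of the 67 symbols called lower, 64 had 0 counts in every erlotinib library, and the other 3 had a single count. Those were USP17L3, PRAMEF5 and PRAMEF8. By family, 24 of 36 DEFB symbols, 13 of 18 PRAMEF, 8 of 13 USP17L, 4 of 8 NBPF, 4 of 8 GOLGA6 and 3 of 6 POTE symbols were lower. Both NPIP symbols were lower, as were 2 of 3 in each of GOLGA8, TRIM64 and the TBC1D3 prefix, and none of the 3 TRIM49 symbols. AMY1, AMY2 and ANKRD20A had 1 each.

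Symbols of 4 families with a large fall were picked as examples after their values were seen. TBC1D3 had summed counts of 596, 593 and 437 in DMSO and 0 in each erlotinib library, at least 168-fold lower on the CPM scale against the floor of 3 counts per library, with an adjusted p of 0.0101 in edgeR's quasi-likelihood test. GOLGA6C had 388, 330 and 206 counts in DMSO and 0 in erlotinib, at least 91.2-fold lower. PRAMEF4 had 584, 206 and 161 in DMSO and 0 in erlotinib, at least 81.7-fold lower, and AMY1A, salivary amylase, had 308, 392 and 71 and then 0, at least 72.5-fold lower. In all 4 symbols each DMSO library was above each erlotinib library.

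Among the 43 symbols not called, 26 had counts in erlotinib and 17 had none. TRIM49 had 446, 325 and 229 summed counts in DMSO and 2231, 2241 and 1 in erlotinib (adjusted p of 0.951 in edgeR's quasi-likelihood test). DEFB131 was the only member symbol at over 500 counts in all 3 erlotinib libraries, with 288, 226 and 20 counts in DMSO and 718, 887 and 1059 in erlotinib (adjusted p of 0.914 in the same edgeR test). The DEFB131 sgRNA described above gave the 718 and 1059, and another gave the 887. The mean level of the symbol was 60.9 CPM in DMSO and 391 CPM in erlotinib, while its fitted log2 change after normalization was -0.146. Symbols outside the members were not counted at this cut. USP17L11 had 550, 0 and 0 counts in erlotinib (adjusted p of 0.349 in edgeR). Besides DEFB131 and USP17L11, the symbols with 2 or more sgRNAs counted in erlotinib were DEFB112, DEFB113, DEFB4A and PRAMEF15.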

How the data were processed

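The data were sgRNA counts of a pooled screen in MDA-MB-231 cells, 3 libraries each for DMSO and erlotinib, grouped by their treatment labels. Some labels name RNA and other models, and the protocol text and the paper's methods, which describe the screen, were followed. The authors deposited whole-number counts per sgRNA and library, with no filter or normalization, including sgRNAs at 0. The counting program, its mismatch allowance and a genome build are not given in the sources used here. A count assigned to a near-identical sgRNA through sequencing error would raise detection, and its part was not tested.

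Members and gene lists were chosen with earlier results of these data known. Shares of sgRNAs with at least 1 count were compared within libraries by exact two-sided sign-flip permutation tests and between groups by exact permutation. Counts of 74555 targeting sgRNAs, and of 20409 symbols after summing, were fitted over all 6 libraries with edgeR 4.0.16 in R 4.3.3 (upper-quartile normalization at the 0.99 quantile, the study's method), with DESeq2 1.42.0, TMM, total counts, a low-count filter and left-out replicates as alternatives. The study's filter on library medians removed no counted sgRNA, since each median was 0. CPM used library totals, with a floor of 3 counts (0.704 to 1.91 CPM), which covers counting error only. Named sgRNAs were those in 2 or more erlotinib libraries, the 3 highest of each erlotinib library, the 5 highest in all 3 DMSO libraries and the 5 smallest p-values each way, with the largest near-identical groups, symbols with no count and symbols with every sgRNA detected. RefSeq (GRCh38.p14) names matched 112 of 115 symbols. Sequences of some sgRNAs are not reported here. Python 3.11.15, pandas 2.3.3 and scipy 1.17.1 were used, and the scripts were tested on simulated data.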

Additional observations from a re-analysis of the deposited data

How the results depend on the processing

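The detection differences in DMSO and in erlotinib, and the change of the detection ratio, kept their direction under every alternative run (detection at 3 or 10 counts, prefix subsets, olfactory sgRNAs weighted by G and C content, other protein-coding sgRNAs, and for the ratio equal depth). Leaving out 1 replicate gave 2.13 to 4.51 percentage points in DMSO, 0.959 to 1.24 in erlotinib and 0.44 to 0.55 in log2 ratio, and 2.97 to 7.99 percentage points for near-identical partners. The count of multi-copy sgRNAs called depleted, 0 in the edgeR quasi-likelihood test, was 85 with DESeq2's Wald test (24.8% of members, 18.8% of all sgRNAs) and 39 of 57 with filterByExpr, which tested fewer sgRNAs (68.4% of members, 75.8% of all). Leaving out 1 replicate gave 0 to 95 depleted and 0 to 2 enriched. Without DMSO replicate 2, 84 were depleted (27.5% of members, beside 19.3% of all sgRNAs). Without DMSO replicate 3, 95 were depleted (32.4%, beside 22.9%) and 2 enriched (0.683%, beside 0.486%, or 303 sgRNAs). The cause was not tested. The 67 symbols called lower became 0 with the replicate block, 51 to 79 under the other settings and 53 to 62 with a replicate left out. The 51 were of 75 tested with filterByExpr (68.0%, beside 72.2% of all symbols), and the 79 came from DESeq2's Wald test (71.8%, beside 77.3%). The 53 were without DMSO replicate 1 (50.5%, beside 56.6%) and the 62 without DMSO replicate 2 (56.9%, beside 59.2%). In every setting with a call, the member share lay below that of all symbols.

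Replicate numbers are shared by the groups but did not pair the libraries: deviations from the group means correlated at 0.00051, -0.0036 and 0.0038 between libraries of the same number. With the replicate block, 0 symbols and 0 sgRNAs were called, over all features as well as among members, and the detection ratio changed by 0.49 (exact sign-flip permutation p = 0.25).

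No named sgRNA passed the edgeR test at the reported setting. At an adjusted p under 0.05 and in the same direction, 7 passed with DESeq2's Wald test and 4 with filterByExpr. Without DMSO replicate 2, 7 passed, and without DMSO replicate 3, 9 did, beside the shares of all sgRNAs given above. The fitted log2 change turned sign for some named sgRNAs. Under the replicate block it was -0.56 for PRAMEF20, -9.52 for USP17L13 and -0.67 for PRAMEF15, and under filterByExpr -1.20 for USP17L13, -0.20 for TRIM49 and -0.087 for PRAMEF15. With 1 replicate left out it ranged from -9.38 (without erlotinib replicate 1) to 3.16 for PRAMEF20, from -11.62 (same library) to 1.78 for USP17L13, from -7.11 (without erlotinib replicate 2) to 12.58 for USP17L15, and, lowest without erlotinib replicate 3, from -7.75 to 2.54 for PRAMEF15 and from -1.49 to 4.42 for DEFB110. With DESeq2's size factors it was 3.41 for USP17L11 and 4.76 for USP17L24, and with total counts 0.51 for DEFB105A and 0.59 for USP17L24.

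Total counts do not order the libraries by detection: erlotinib replicate 3, with 3332895 counts, had 14 multi-copy sgRNAs and DMSO replicate 3, with 1574743, had 180. With libraries brought to equal depth the ratio still changed by 0.45. The floor of 3 counts was 0.900 to 1.69 CPM in erlotinib, and a count of 0 does not show that a sequence was absent from the cells.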
